A study of Mus musculus with 4 samples.

Results

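The cells described here were early erythroid progenitors of mouse bone marrow that carried transcripts of Klf1, an erythroid transcription factor, and only few of Car1, a carbonic anhydrase that accumulates as red cell precursors commit. They were picked cell by cell from raw counts of unique molecular identifiers (UMIs), each of which stands for 1 captured transcript. Barcodes below 1000 UMIs or 500 genes, or with mitochondrial UMIs above 10%, were set aside. A barcode counted as a Klf1+ Car1-low cell when it held at least 1 Klf1 UMI and 1 to 9 Car1 UMIs. It also had to hold fewer than 3 UMIs of Pf4, a platelet gene, fewer than 5 of Elane, a neutrophil gene, fewer than 3 of Fcer1a, a mast cell gene, and fewer than 3 of Cd79a, a B-cell gene. The rule found 548 cells among 23972 kept barcodes of 2 libraries. Its 6 genes chose the cells, so their levels are given as a description only.

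The study took CD45.2+ cells from bone marrow 10 weeks after transplantation and profiled them with a 10x Genomics 5′ version 2 kit. Its question, going by its title, was what the histone methyltransferases MLL3 and MLL4 do in blood stem cells and how far that depends on their enzymatic activity. There were 4 libraries, 1 per group, and 55216 of their barcodes were kept. The groups used here were control Kit+ cells and Mll3/4SI Kit+ cells, and Kit is the surface receptor that marks stem and progenitor cells. The labels name the genotypes only as control and Mll3/4SI, leave SI unexpanded, and give no strain, no driver of the alleles and no number of mice per library. With 1 library in each group no difference between genotypes could be tested, and every interval below is an exact 95% interval that covers counting error only.

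Red cell formation starts when a Gata2-expressing progenitor turns on Gata1 and Klf1, which together drive the genes of heme synthesis, iron uptake, the red cell membrane and globin. The earliest steps still share genes with megakaryocytes, mast cells and stem cells. Signals through Kit sustain these early cells, and the erythropoietin receptor becomes decisive only later.

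Summed over all the cells, the transcripts fit the label of an early erythroid progenitor, apart from cells under 3000 UMIs. With each cell thinned to 5000 UMIs, Gata1 was found in 58.7% (52.4 to 64.9) of the control and 60.6% (52.6 to 68.2) of the SI Klf1+ Car1-low cells. In neutrophil-lineage cells of the same libraries, taken as cells with at least 20 Elane UMIs and used as the level that free RNA can give, the share was 5.38% and 2.42%. Thinning used 252 control and 160 SI cells and left out 105 and 31 below 5000 UMIs. Without it Gata1 was found in 65.0% and 77.0% of the Klf1+ Car1-low cells, and in 13.7% of the control neutrophil-lineage cells. The median depth before thinning was 15314 and 17034 UMIs over all neutrophil-lineage cells, against 6619 and 7615 in the Klf1+ Car1-low cells. Gata1, which the rule did not use, thus stood far above the level in cells that should lack it. Late markers were absent or close to it. Slc4a1, the red cell anion exchanger, had 0 UMIs in either library, Alas2, the erythroid enzyme that starts heme synthesis, had 4 and 2, and Hba-a1, an alpha globin, had 5 and 1.

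Klf1+ Car1-low cells made up 357 of 11891 kept control barcodes, 3.0% (2.70 to 3.32), and 191 of 12081 SI barcodes, 1.58% (1.37 to 1.82). Cells that met the same rule but held 10 or more Car1 UMIs, called Car1-high here, were more common in both libraries. They numbered 2053 in the control library, 17.3% (16.6 to 18.0), and 741 in the SI library, 6.13% (5.71 to 6.58). Both stages were thus scarcer in the SI library, and the Car1-low share of the 2 stages together was 14.8% (13.4 to 16.3) in control and 20.5% (17.9 to 23.2) in SI. Among all Klf1+ cells of the rule whatever their Car1, cells with 0 Car1 UMIs included, it was 13.5% (12.2 to 14.8) and 16.9% (14.8 to 19.2), intervals that overlap slightly. The same rule found 12 of 14915 barcodes in the library of Mll3/4 deleted Kit+ cells, 0.0805% (0.0416 to 0.140), too few to describe.

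The Car1 limit was a limit on raw UMIs, and depth per cell entered it. The median depth was 6619 UMIs in control (range 1017 to 27724) and 7615 in SI (1142 to 39570), against 18546 and 19374 in Car1-high cells. Per 10000 UMIs the median Car1 count was 4.88 in control and 4.45 in SI, and it was 38.3 and 38.0 in Car1-high cells. Of the Klf1+ Car1-low cells, 86 in control (24.1%) and 42 in SI (22%) held 10 or more Car1 UMIs per 10000 UMIs and were low in Car1 only by raw count. Just inside the limit, at 9 Car1 UMIs, lay 23 control and 16 SI cells, and just outside, at 10, lay 16 and 25. A single Klf1 UMI admitted 203 control cells (56.9%) and 90 SI cells (47.1%). Among neutrophil-lineage cells, without thinning, 27.2% in control and 10.1% in SI held a Car1 UMI and 11.3% and 4.03% a Klf1 UMI, and 297 (6.46%) and 56 (1.66%) held 10 or more Car1 UMIs per 10000 UMIs. The part of free RNA and doublets in these shares was not tested. No barcode was shared between the Klf1+ Car1-low cells of the libraries, and 0 of them matched a barcode with an assembled immunoglobulin contig, which allows a share of up to 0.840% in control and 1.57% in SI.

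Along Car1, from cells that met the rule but for having 0 Car1 UMIs, 237 in control and 197 in SI, to Car1-high cells, early genes were lower and some late genes higher. The levels below are counts per 1000000 (CPM), the summed UMIs of a gene over the summed UMIs of the cells. Meis1, a homeobox gene of stem cells, stood at 134 CPM (120 to 148) in control and 137 CPM (121 to 155) in SI Klf1+ Car1-low cells, against 24.9 and 26.2 CPM in Car1-high cells. Itga2b, which encodes the integrin CD41 of megakaryocytes and early progenitors, stood at 84.3 and 88.0 CPM against 11.5 and 14.8 CPM. Gata2, the early GATA factor, stood at 251 and 250 CPM against 76.0 and 76.9 CPM. Summed over all Klf1+ Car1-low cells, these 3 early genes were at nearly the same level in the 2 genotypes, while they differed severalfold between the stages. Some late genes ran the other way. Ermap, a red cell surface protein, stood at 95.2 CPM in control and 115 CPM in SI against 246 and 232 CPM in Car1-high cells, and Blvrb, biliverdin reductase B, at 382 and 436 CPM against 742 and 768 CPM. Apoe, filed here with the committed erythroid progenitor genes, did not. From 0 Car1 UMIs to Car1-high cells it went from 1357 to 578 CPM in control and from 679 to 478 CPM in SI.

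**Figure D1:**
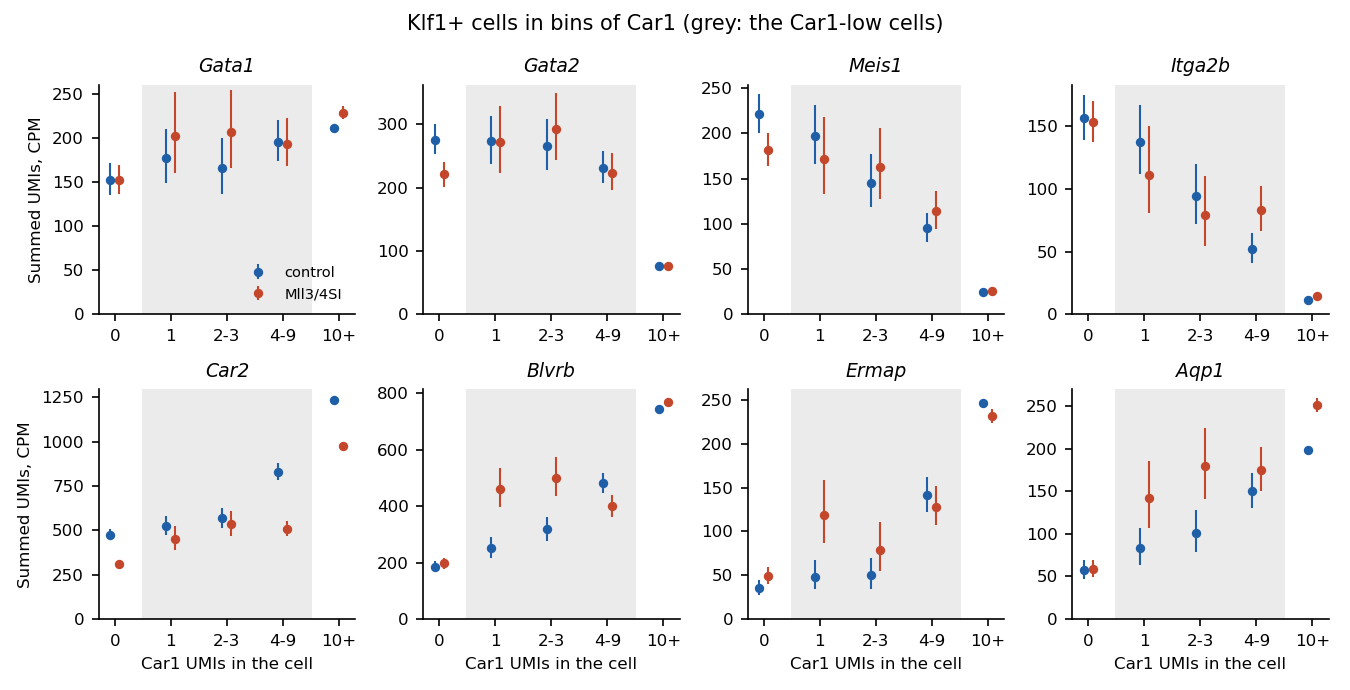
Summed level (y axis, CPM) of 8 genes in Klf1+ cells grouped by their Car1 UMIs (x axis), control in blue and Mll3/4SI in red, with exact 95% Poisson intervals and the Klf1+ Car1-low cells on grey. Meis1 and Itga2b were lower in bins of higher Car1 in control, from 221 and 156 CPM at 0 Car1 UMIs to 24.9 and 11.5 CPM at 10 or more, while Car2 went from 476 to 1236 CPM.

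Within a library, 545 of 8337 genes (6.54%) were at least 2-fold higher in Klf1+ Car1-low than in Car1-high control cells and 78 (0.936%) at least 2-fold lower. In SI these were 486 of 8381 (5.8%) and 33 (0.394%). Of the compared stem and multipotent progenitor genes, 15 of 19 in control and 12 of 19 in SI were at least 2-fold higher in the Klf1+ Car1-low cells. The same held for 10 of 13 and 10 of 14 megakaryocyte genes and for 7 of 9 and 9 of 11 mast and basophil genes. Of the erythroid membrane and cytoskeleton genes, 6 of 20 in control and 4 of 20 in SI were at least 2-fold lower. Of 17 compared genes of committed erythroid progenitors, 3 were at least 2-fold higher and 3 at least 2-fold lower in each library. Of the erythroid transcription factors 1 of 19 and 2 of 18 were at least 2-fold higher in the earlier cells and 0 lower, shares near those over all compared genes. Granulocyte genes differed between the libraries in this comparison, with 4 of 7 at least 2-fold higher in the earlier control cells (median log2 ratio 1.43) and 0 of 9 in SI (0.13). In each library 2 were at least 2-fold lower. Without Elane the list summed to 597 and 1030.5 CPM in Car1-high cells, against 971 and 997 CPM in Klf1+ Car1-low cells. In Klf1+ Car1-low cells 1 SI cell held 23.9% of the SI sum. Without the top cell of each library the SI to control ratio there was 0.823. The libraries thus differed more in the Car1-high cells, and without those top cells the Klf1+ Car1-low cells leaned the other way. The 2 globin genes had medians of 0.29 and -1.9.

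Differences between the genotypes varied along Car1. At 0 Car1 UMIs Blvrb was close to level, with 185 CPM (166 to 205) in control and 197 CPM (179 to 216) in SI. Among cells with 1 Car1 UMI, 91 in control and 36 in SI, Blvrb stood at 252 CPM in control and 462 CPM in SI, Ermap at 48.5 and 119 CPM, and Aqp1, the red cell water channel, at 83.5 and 143 CPM. Among cells with 2 to 3 Car1 UMIs, 86 and 47, Blvrb stood at 318 and 501 CPM, Ermap at 50 and 79.2 CPM and Aqp1 at 101 and 179 CPM. At these low but non-zero Car1 counts these 3 genes were thus higher in SI, although the intervals of Ermap overlapped at 2 to 3 UMIs. Car2, a second carbonic anhydrase of red cells, was not, with 524 and 454 CPM at 1 UMI and 569 and 535 CPM at 2 to 3, where the intervals overlapped. Tfrc, the main transferrin receptor, stood at 43.1 CPM (29.5 to 60.8) and 28.5 CPM (14.2 to 51) at 1 UMI. These bins are of raw Car1 UMIs, and cells with 1 Car1 UMI had median depths of 7825 UMIs in control and 8950 in SI. A Car1 UMI was held by 27.2% of control and 10.1% of SI neutrophil-lineage cells, so the bins may hold unlike cells. The part of free RNA in them was not tested. Among cells with 4 to 9 Car1 UMIs, 180 and 108 cells, Blvrb stood at 480 and 400 CPM, Ermap at 141 and 128 CPM and Aqp1 at 150 and 175 CPM. Of the 3 early genes 1 differed there beyond the intervals, Itga2b, with 52.0 CPM (40.8 to 65.3) in control and 82.9 CPM (66.3 to 102) in SI. Gata2 stood at 232 and 224 CPM and Meis1 at 94.8 and 114 CPM, with overlapping intervals. The megakaryocyte list summed to 899 CPM in control and 1198 CPM in SI at 4 to 9 Car1 UMIs, and to 1758 and 1377 CPM at 1 UMI. Car2 was lower in SI at 4 to 9 Car1 UMIs beyond the intervals, with 829 CPM (782 to 878) in control and 509 CPM (467 to 555) in SI, and at 0 UMIs, with 476 CPM (446 to 508) and 311 CPM (288 to 335).

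Depth separated the Klf1+ Car1-low cells into unlike kinds. Cells of 3000 to under 6000 UMIs, 131 in control and 48 in SI, had the lowest level of a list of 20 G2/M phase genes, 429 CPM (379 to 483) and 689 CPM (588 to 802) in sum. They also had the highest level of the stem and multipotent progenitor list, 5293 and 5609 CPM. Without Ifitm3, an interferon-induced gene in that list, these sums were 4919 CPM (4746 to 5097) and 4704 CPM (4433 to 4986). Txnip, an inhibitor of thioredoxin that is high in resting cells, stood there at 561 and 576 CPM, and Mki67, which marks cycling cells, at 88.6 and 91.8 CPM. Cells in this bin thus had few transcripts of division. That did not hold for still shallower control cells, under 3000 UMIs, with 2440 CPM (2023 to 2917) of the G2/M list. Cells of 6000 to under 12000 UMIs, 151 and 90, held 3307 CPM (3208 to 3409) of the G2/M list in control and 1902 CPM (1805 to 2003) in SI, and 3559 and 3547 CPM of the stem and progenitor list without Ifitm3. Cells of 12000 or more UMIs, 48 and 45, went the other way for the G2/M list, with 2600 CPM (2496 to 2708) in control and 3370 CPM (3248 to 3496) in SI. They held 1844 and 1797 CPM of the stem and progenitor list without Ifitm3, and 2076 CPM of the heme list in control and 1908 CPM in SI, against 2409 and 2405 CPM in Car1-high cells. Blvrb stood there at 597 and 613 CPM, against 742 and 768 CPM in Car1-high cells and 225 and 264 CPM at 6000 to under 12000 UMIs. Car2 stood at 1103 and 730 CPM, against 479 and 302 CPM at 6000 to under 12000 UMIs. Gata2, at 142 and 183 CPM, stayed above the 76.0 and 76.9 CPM of Car1-high cells. Cells under 3000 UMIs, 27 and 8, held 3131 and 3107 CPM of the heme list, and their Car2 level was 1952 and 1591 CPM, above the 1236 and 974 CPM of Car1-high cells. Their stem and progenitor list stood at 1179 CPM (895 to 1524) in control, near the 1147 CPM of Car1-high cells, and at 3183 CPM (2294 to 4302) in SI from 42 UMIs. These shallow control cells thus went against the label of an early progenitor.

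**Figure D2:**
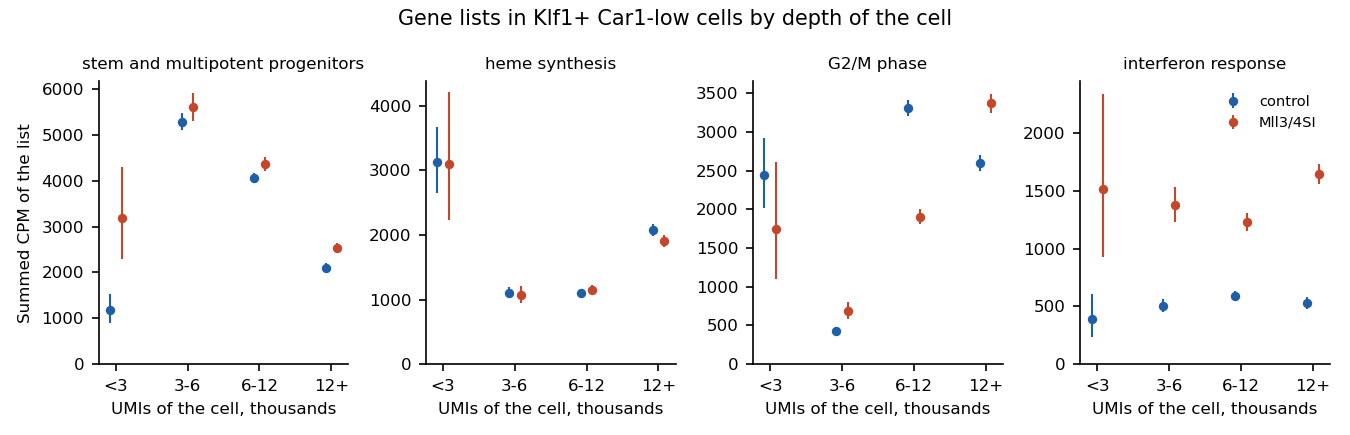
Summed CPM (y axis) of 4 gene lists in Klf1+ Car1-low cells grouped by the UMIs of the cell (x axis, in units of 1000), control in blue and Mll3/4SI in red, with exact 95% Poisson intervals. The stem and progenitor list peaked at 3000 to under 6000 UMIs with 5293 CPM in control and 5609 CPM in SI (4919 and 4704 CPM without Ifitm3), where the G2/M list was lowest, and the interferon list was higher in SI in every bin, for example 1377 against 501 CPM at 3000 to under 6000 UMIs.

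Between SI and control, the erythroid transcription factors were nearly level in sum. Genes with a mean of at least 10 CPM over both libraries were compared, 8639 without the 6 genes of the rule, as log2 ratios with 1 CPM added to each value, a scale that understates the difference of low genes. Of these, 94 (1.09%) were at least 2-fold apart, 61 (0.706%) higher and 33 (0.382%) lower in SI, and the median log2 ratio was 0.06. With ribosomal protein and mitochondrial UMIs kept out of the library sums, 75 were higher and 71 lower. None of the 18 compared erythroid transcription factors was 2-fold apart, a share near that over all compared genes. Their median log2 ratio was 0.01. Their summed level was 3032 CPM (2968 to 3096) in control and 3036 CPM (2958 to 3117) in SI. Myb, which keeps progenitors proliferating, stood at 496 and 508 CPM. Lmo2, the bridging protein of the GATA1 complex, stood at 387 and 348 CPM. Nfe2, a factor of globin and platelet genes, stood at 242 and 239 CPM, and Gata1 at 184 and 199 CPM. The intervals of the ratio held 1 for Myb, Gata2, Nfe2 and Gata1 and reached from 0.815 to 0.992 for Lmo2.

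The receptor side was nearly level too when summed over all the cells, with 1 gene leaning up. None of 11 compared genes of the erythropoietin receptor pathway was 2-fold apart, near the share over all compared genes, with a median log2 ratio of 0.02. At 4 to 9 Car1 UMIs the list was higher in SI, with 1071 CPM (1018 to 1126) in control and 1215 CPM (1149 to 1284) in SI. At 1 and at 2 to 3 Car1 UMIs the intervals overlapped. Kit stood at 301 CPM in control and 305 CPM in SI, and Epor at 55.5 and 52.9 CPM. Igf1r, the receptor of insulin-like growth factor, stood at 134 and 137 CPM. Nr3c1, the glucocorticoid receptor that supports renewal of erythroid progenitors under stress, stood at 87.8 CPM (77.3 to 99.4) in control and 133 CPM (117 to 150) in SI, a ratio of 1.51 (1.26 to 1.81). In Car1-high cells it stood at 91.6 and 102 CPM.

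Of the genes that build heme, 0 of 15 compared were 2-fold apart, near the share over all compared genes, with a median log2 ratio of -0.03. Alad and Urod, enzymes of the pathway, stood at 179 and 141 CPM in control and 174 and 138 CPM in SI. Tmem14c, a mitochondrial protein needed for heme synthesis, stood at 261 and 253 CPM. Of the iron genes 0 of 16 were 2-fold apart, also near that share, with a median of 0.06. Fth1, the heavy chain of the iron store ferritin, stood at 1703 and 1710 CPM, Tfr2, a transferrin receptor, at 138 and 120 CPM, and Ftl1, the ferritin light chain, at 108 and 141 CPM. These lists thus held the same summed level within a few percent, 1445 CPM (1401 to 1490) and 1497 CPM (1442 to 1554) for heme and 2848 CPM (2786 to 2910) and 2954 CPM (2876 to 3033) for iron. Along Car1 the heme sum differed in opposite directions, with 1235 CPM (1156 to 1318) and 1491 CPM (1372 to 1618) at 1 Car1 UMI, 1286 CPM (1202 to 1374) and 1623 CPM (1504 to 1748) at 2 to 3, and 1631 CPM (1565 to 1698) and 1448 CPM (1375 to 1523) at 4 to 9.

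Membrane genes leaned slightly higher in SI. Of 20 compared genes of the erythroid membrane and cytoskeleton, 1 was 2-fold higher, 0 lower and 15 above 0, with a median log2 ratio of 0.16 against 0.06 over all compared genes. Their sum was 1828 CPM (1779 to 1879) in control and 2040 CPM (1976 to 2106) in SI. The list's median was 0.36 among cells with 1 to 3 Car1 UMIs and -0.03 among those with 4 to 9. It was -0.08 with Car1 limited to 1 to 9 per 10000 UMIs and -0.03 with at least 2 Klf1 UMIs per cell. Aqp1 stood at 121 CPM (109 to 135) in control and 169 CPM (151 to 189) in SI, a log2 ratio of 0.48, and at 5000 UMIs per cell was found in 34.1% (28.3 to 40.3) and 49.4% (41.4 to 57.4) of cells, or in 44.0% and 60.7% without thinning. Tspo2, an erythroid protein of the translocator family, stood at 65.0 and 116 CPM, a log2 ratio of 0.82, in 21.4% (16.5 to 27.0) and 32.5% (25.3 to 40.3) of cells, or 31.1% and 47.6% without thinning. Both genes were higher in SI among Car1-high cells, with log2 ratios of 0.34 for Aqp1 and 0.67 for Tspo2, and the neutrophil-lineage cells had each of them in at most 3.96% of cells at 5000 UMIs and 9.97% without thinning.

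Of 17 compared genes of committed erythroid progenitors, 0 were 2-fold higher and 1 was lower. That gene was Rgcc, a regulator of cell cycle progression, with 22.5 CPM in control and 10.3 CPM in SI. Rgcc is also high in control neutrophil-lineage cells, at 224 CPM against 8.14 CPM in SI, and the part of free RNA in its difference was not tested. With Car1 limited per 10000 UMIs the median of the list was -0.23 in place of 0.10. Car2 was lower in SI without reaching 2-fold, with 687 CPM (657 to 718) in control and 504 CPM (472 to 537) in SI. At 5000 UMIs it was found in 82.9% of control cells (77.7 to 87.4) and 65.6% of SI cells (57.7 to 72.9), against 21.0% and 5.60% of neutrophil-lineage cells. Without thinning it was found in 89.4% and 80.1% of the Klf1+ Car1-low cells. Apoe, apolipoprotein E, stood at 1295 and 1023 CPM, and Vamp5, a vesicle protein, at 737 and 901 CPM. Globin transcripts were few in both libraries, with Hbb-bs at 29.5 and 20 CPM and Hbb-bt, its near-identical neighbour, at 19.3 and 24.8 CPM. The 2 beta globin genes can exchange reads, and 32 of the 84 control Hbb-bs UMIs lay in 1 cell.

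**Figure D3:**
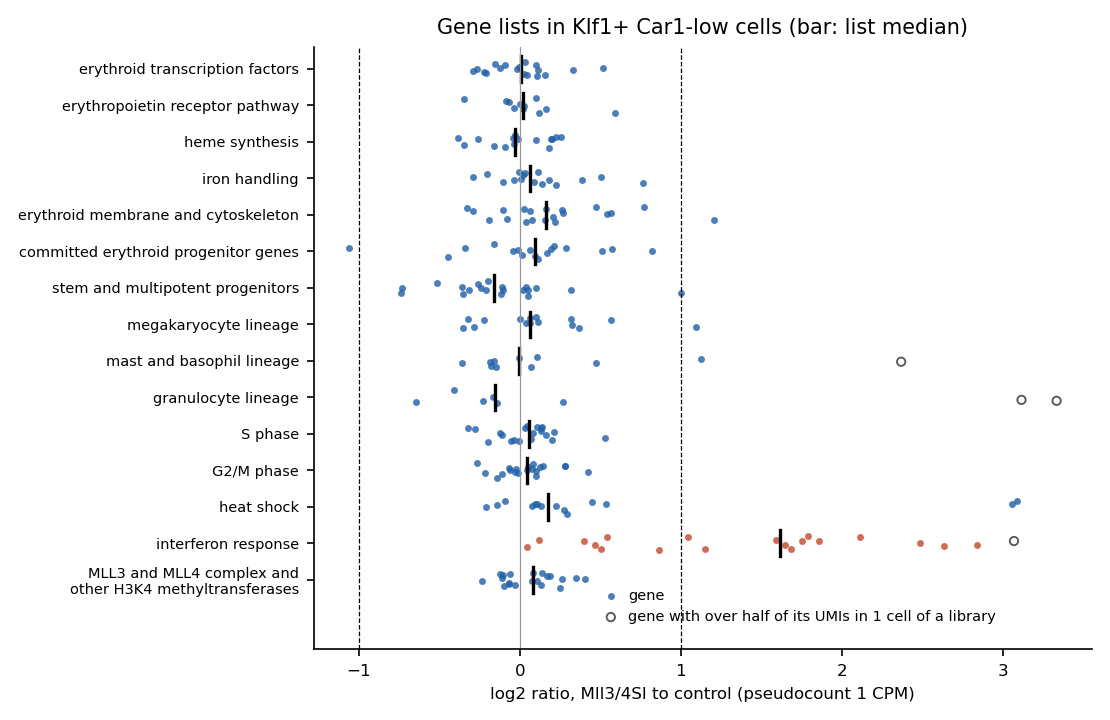
Log2 ratios of SI to control (x axis) for the compared genes of 15 lists (rows) in Klf1+ Car1-low cells. Each dot is a gene, open dots rested mainly on 1 cell of a library, black bars are list medians and dashed lines mark 2-fold. The interferon list, with a median of 1.62, stood to the right, and the erythroid lists lay around 0.

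Genes of the interferon response made the largest coordinated difference among the lists. Interferons signal from surface receptors to a shared set of antiviral genes, and several of these are active at a low level in stem cells without infection. Of 20 compared genes, 13 were at least 2-fold higher in SI and 0 lower, and the median log2 ratio was 1.62 against 0.06 over all compared genes. The sum of the list was 547 CPM (520 to 575) in control and 1440 CPM (1386 to 1496) in SI, a ratio of 2.63 (2.47 to 2.81). One SI cell held 13.2% of the list's UMIs, and without the top cell of each library the ratio was 2.39. With the top cell of each gene left out of each library, 11 genes of the list were 2-fold higher. That the list would differ was known from earlier results of these data, so its direction is a description.

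Promoters of many genes of the list held the motif of the interferon response. Stretches of 3 are shown, from genes past 2-fold whose promoters carried at least 2 matches. Oas1a met the same condition and is not shown. Irf7, Oasl2 and Xaf1, also past 2-fold, had windows with 0 matches. Gbp3 and Stat2, which were not past 2-fold, had 2 matches and 1 match. Promoter windows came from RefSeq on build GRCm38.p6 and ran from 250 bases before to 50 bases after a gene's start. The motif searched was GAAA, any 2 bases and GAAA again, a core of the interferon-stimulated response element, read on both strands (TTTC, any 2 bases and TTTC on the other). Of the 24 listed genes 17 had a window, and 12 of these (70.6%) held a match in at least 1 window, against 1079 of 27025 genes (3.99%) in the whole table. This share describes a list made of interferon genes and not the SI to control difference. Overlapping matches were counted separately. A match is a description of the letters and not a site of binding. The stretches run from 150 to 51 bases before the start, 5′ to 3′ in the direction of the gene, with matches in capitals.
Isg15, chr4:156200869-156200968, minus strand: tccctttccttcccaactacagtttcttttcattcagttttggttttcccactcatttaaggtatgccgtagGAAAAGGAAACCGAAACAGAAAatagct
Ifit1, chr19:34640739-34640838, plus strand: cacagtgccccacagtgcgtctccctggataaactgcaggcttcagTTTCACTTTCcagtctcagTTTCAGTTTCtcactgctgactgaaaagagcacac
Bst2, chr8:71537523-71537622, minus strand: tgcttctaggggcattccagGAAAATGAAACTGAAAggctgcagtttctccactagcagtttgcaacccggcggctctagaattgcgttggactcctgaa

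Isg15 encodes a ubiquitin-like protein that is attached to other proteins after interferon. Its level was 24.6 CPM (19.2 to 31.1) in control and 182 CPM (164 to 203) in SI, a log2 ratio of 2.84. One SI cell held 112 of its 338 UMIs, yet it was seen in 69 of 191 SI cells against 45 of 357 control cells, and without the top cells the ratio was 5.60. At 5000 UMIs it was found in 7.94% of control cells (4.92 to 12) and in 28.8% of SI cells (21.9 to 36.4). Irf7, the factor that amplifies the response, stood at 17.6 CPM (13 to 23.2) and 114 CPM (99.6 to 131), a log2 ratio of 2.64, spread over 73 SI cells with at most 16 UMIs in any. It was found in 8.73% of control cells (5.55 to 12.9) and 32.5% of SI cells (25.3 to 40.3) at 5000 UMIs. For both genes the intervals of the shares did not overlap. Neutrophil-lineage cells held Isg15 in 4.50% and 13.7% and Irf7 in 2.97% and 11.9% of cells at 5000 UMIs, also higher in SI, and the part of free RNA in these shares was not tested.

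Ifit1, an RNA-binding antiviral protein, stood at 2.46 CPM in control and 28.1 CPM in SI, from 7 and 52 UMIs, and 1 SI cell held 23 of these. Bst2, the membrane protein tetherin that holds back budding virus, stood at 117 CPM (105 to 131) and 262 CPM (239 to 286), a log2 ratio of 1.15. Ifi27l2a, a small interferon-induced protein, stood at 14.4 and 85.3 CPM, a log2 ratio of 2.49. The other genes past 2-fold had log2 ratios from 1.05 for Oas1a to 2.12 for Iigp1. They were Oasl2 and Oas1a, of the sensor family that makes oligoadenylate, Rsad2 and Zbp1, antiviral effectors, Usp18, which removes ISG15 and dampens the pathway, and Rtp4, Xaf1 and Iigp1.

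All 20 compared genes of the list were above 0, where 60.5% of all compared genes were, but their sizes varied. Stat2 and Irf9, factors that carry the interferon signal to the genes, were closer to level, with 19.0 and 28.1 CPM for Stat2 and 55.2 and 59.9 CPM for Irf9, and the ratio intervals of both held 1. Gbp3, a guanylate-binding protein, stood at 18.3 and 18.9 CPM, and Ifit2 at 18.6 and 24.8 CPM. Ifitm3, a membrane protein that blocks viral entry and that was filed here with the stem cell genes and not in the interferon list, stood at 392 CPM (370 to 416) and 786 CPM (746 to 828), at the 2-fold line. Ifitm1, its neighbour on chromosome 7, went the other way with 733 and 572 CPM, but in Car1-high cells its log2 ratio was 0.43. Ifitm3 was found in 74.2% of control cells (68.3 to 79.5) and 88.1% of SI cells (82.1 to 92.7) at 5000 UMIs, and in 80.1% and 90.6% without thinning. Neutrophil-lineage cells held it in 71.5% and 72.6% at 5000 UMIs, so its share in control was close to theirs.

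**Figure D4:**
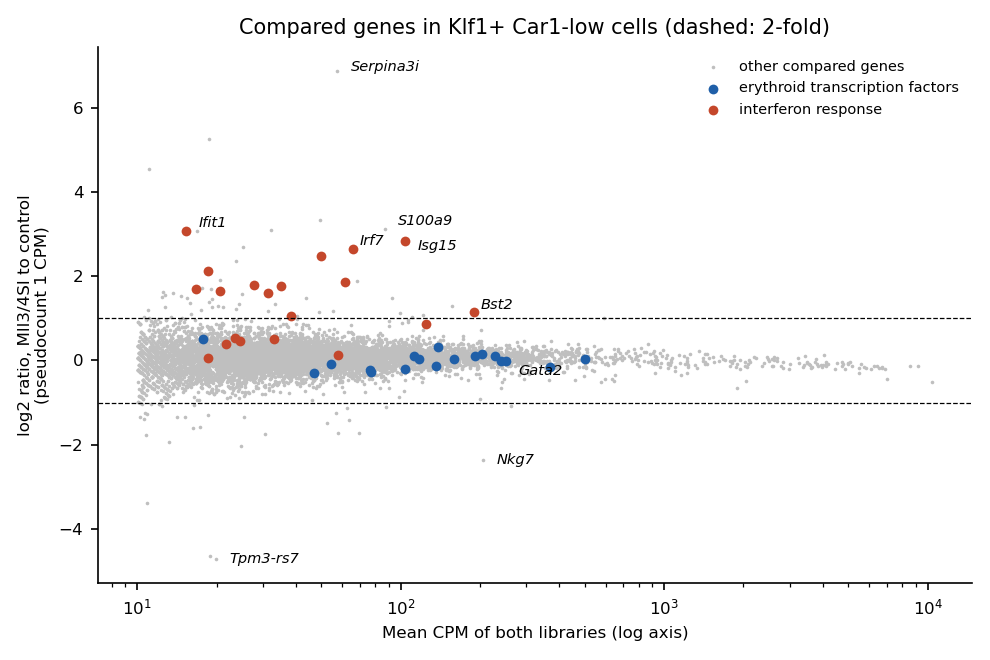
Log2 ratio of SI to control (y axis) against mean CPM of both libraries (x axis, log scale) for the 8639 compared genes of Klf1+ Car1-low cells, with interferon genes in red, erythroid transcription factors in blue and 2-fold as dashed lines. Of the interferon genes 13 lay above the upper line, while all 18 erythroid transcription factors lay between the lines, as did 98.9% of all compared genes.

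Counted per cell at 5000 UMIs, the interferon list had a median of 2 UMIs in 252 control cells and 4 UMIs in 160 SI cells. Cells with 10 or more numbered 8 in control (3.17%) and 32 in SI (20%), and cells with 0 numbered 36 (14.3%) and 12 (7.5%). The highest count of a cell was 31 in control and 62 in SI. The list was higher in SI in every bin of depth. The gap was narrowest at 6000 to under 12000 UMIs, with 1230 against 589 CPM, and widest under 3000 UMIs, with 1516 CPM (926 to 2341) against 386 CPM (233 to 603) from 20 and 19 UMIs. Car1-high cells showed a shift of like size, with a median of 2 and 4 UMIs, and 13 of 18 compared genes were 2-fold higher there, where 0.602% of all 7974 compared genes were, 0.201% were lower and 0.803% were either. Their sums were 408 and 1146 CPM, and those of neutrophil-lineage cells 459 and 801 CPM, so that the erythroid cells had the higher SI sum.

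**Figure D5:**
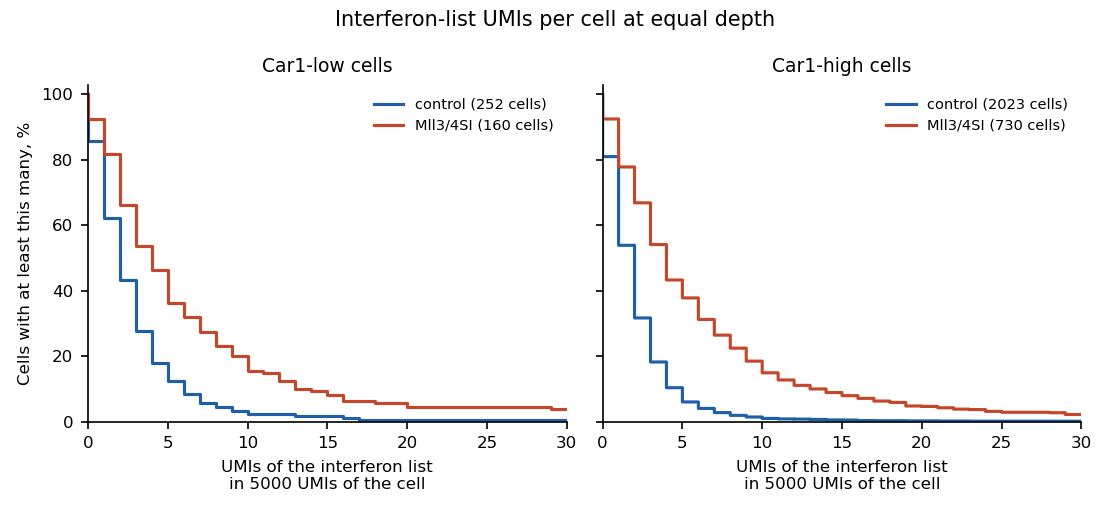
Share of cells (y axis, %) that held at least a given number of interferon-list UMIs (x axis) after thinning each cell to 5000 UMIs, for Klf1+ Car1-low cells on the left and Car1-high cells on the right, control in blue and Mll3/4SI in red. At 10 UMIs the curves of the Klf1+ Car1-low cells stood at 3.17% in control and 20% in SI.

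Beyond the lists, the largest ratio belonged to Serpina3i, a serine protease inhibitor of a cluster on chromosome 12, with 0 UMIs in control and 213 in SI. Its SI level was 115 CPM (100 to 132) in 80 cells, at least 109-fold higher against a floor of 3 UMIs in the control library. Its neighbour Serpina3g lay the other way, with 107 CPM (95.1 to 120) in control and 31.9 CPM (24.2 to 41.1) in SI, and 52 of its 304 control UMIs were in 1 cell. Genes of this family are close copies whose reads can be shared out differently, so each value alone is uncertain. Neutrophil-lineage cells held Serpina3i at 0.0127 CPM in control and 47.5 CPM in SI and Serpina3g at 46.0 and 20.4 CPM, and the part of free RNA was not tested. Hspa1a and Hspa1b, near-identical genes of the inducible heat shock protein HSP70, stood at 2.81 and 5.97 CPM in control and at 30.8 and 58.3 CPM in SI. Hspa1b UMIs lay in 11 control and 60 SI cells. No other compared gene of the 14 heat shock genes was 2-fold apart, and Hspa8, the constitutive member, stood at 1868 and 1697 CPM.

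The remaining genes of the 10 largest ratios rested on 1 cell each. All 69 Retnlg UMIs lay in 1 SI cell, and so did 153 of 168 S100a8 and 271 of 291 S100a9 UMIs in a single cell each. These are genes of neutrophils. Cells with at least 5 UMIs of S100a8 and S100a9 numbered 1 in control and 2 in SI, and without them 57 genes were 2-fold higher and 33 lower.

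Among the 10 genes with the lowest ratios, Nkg7 had by far the most UMIs. It encodes a granule protein of cytotoxic and granulocytic cells and stood at 345 CPM (323 to 367) in control and 66.4 CPM (55.2 to 79.2) in SI, a log2 ratio of -2.36. At 5000 UMIs it was found in 74.2% of control cells (68.3 to 79.5) and 24.4% of SI cells (17.9 to 31.8). Neutrophil-lineage cells held it in 89.2% and 53.4% of cells, so they cannot serve as a background for it. Without thinning the Klf1+ Car1-low cells held it in 75.9% and 32.5%. In Car1-high cells it was found in 31.8% and 8.36%, at 79.6 and 14.7 CPM, also a log2 ratio of -2.36. The part of free RNA in these values was not tested.

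Tpm3-rs7, a processed copy of a tropomyosin gene that can share reads with its parent, stood at 39.4 CPM from 112 UMIs in control and had 1 UMI in SI, a ratio of 0.0137 (0.000344 to 0.078). Its level was also lower in SI in Car1-high cells, 38.3 and 1.36 CPM, and in neutrophil-lineage cells, 51.5 and 1.85 CPM. Gdpd3, a phosphodiesterase, had 59 and 2 UMIs, a ratio of 0.0521 (0.00616 to 0.197). Siglecf, a receptor best known on eosinophils, stood at 47.4 and 13.5 CPM in 100 and 23 cells. Its shares at 5000 UMIs were 19.0% and 7.5%, against 12% and 4.19% in neutrophil-lineage cells, and without thinning 28.0% and 12% against 30.3% and 12.6%, and the part of free RNA was not tested. Nupr1, a stress-response protein, stood at 26.4 and 8.10 CPM. H2-Aa, a chain of major histocompatibility class II, stood at 21.4 and 4.86 CPM, with 22 of its 61 control UMIs in 1 cell. Gpr183, a receptor for oxysterols, stood at 17.2 and 4.32 CPM, C1qtnf6, a secreted protein, at 15.8 and 5.40 CPM, and Trim47, a ubiquitin ligase, at 22.1 and 8.10 CPM. Of these, H2-Aa and Gpr183 lay the other way in Car1-high cells, with log2 ratios of 0.68 and 0.20 at levels under 10 CPM.

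Markers of the neighbouring lineages were present at levels that the rule allowed. The stem and multipotent progenitor list summed to 3663 CPM (3593 to 3734) in control and 3675 CPM (3588 to 3763) in SI, with a median log2 ratio of -0.16 and 7 of 20 compared genes above 0. Ifitm3 alone was 2-fold apart, and it carried the level sum: without it the list stood at 3270 CPM (3204 to 3337) in control and 2889 CPM (2812 to 2967) in SI, a ratio of 0.883 (0.854 to 0.914). No bin of depth showed this deficit beyond its interval, with ratios of 0.956 (0.892 to 1.02) at 3000 to under 6000 UMIs, 0.997 (0.950 to 1.05) at 6000 to under 12000 and 0.974 (0.908 to 1.04) at 12000 or more, and 2.29 (1.43 to 3.63) under 3000. In bins of Car1, with Ifitm3 kept, the list was lower in SI at 1 Car1 UMI, 4374 CPM (4225 to 4528) and 3827 CPM (3635 to 4028), and at 2 to 3, 4191 CPM (4039 to 4348) and 3732 CPM (3551 to 3919), and higher at 4 to 9, 3039 CPM (2949 to 3131) and 3594 CPM (3480 to 3711). Ifitm3 itself stood at 318 and 814 CPM in that last bin. Angpt1, a growth factor of stem cells, stood at 488 and 507 CPM, and Txnip at 338 and 282 CPM. At 12000 or more UMIs Angpt1 was higher in SI, with 196 CPM (168 to 227) in control and 340 CPM (302 to 382) in SI. In the other bins of depth its intervals overlapped, and those of Txnip overlapped in every bin of depth. Mecom and Hlf, factors of the stem cell itself, leaned lower in SI, with 26.7 and 15.7 CPM for Mecom and 23.2 and 13.5 CPM for Hlf, and the ratio intervals of both lay below 1. The megakaryocyte list summed to 1216 and 1267 CPM, and 1 of its 15 compared genes was 2-fold apart, Cavin2, a caveolar protein, with 9.84 and 22.1 CPM. Ppbp, a gene of mature platelets, was at 0 in both.

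Of the mast and basophil list, which summed to 2601 CPM (2542 to 2661) in control and 2432 CPM (2361 to 2504) in SI, 2 of 11 compared genes were 2-fold higher. The list holds Srgn, and also Gata2 and Ifitm1, which other lists here share. Ifitm1 was lower in SI, as given above, and Srgn alone stood at 1131 and 1022 CPM at 4 to 9 Car1 UMIs. The lower SI sum is thus not a measure of mast cell genes alone. Cpa3, the carboxypeptidase of mast cells, stood at 61.8 CPM (53 to 71.7) in control and 136 CPM (120 to 154) in SI. At 5000 UMIs it was found in 19.0% (14.4 to 24.4) and 43.8% (35.9 to 51.8) of cells, and without thinning in 24.6% and 48.7%. Neutrophil-lineage cells held it in 16.3% and 42.4% at 5000 UMIs, about the same shares, and Car1-high cells in 7.41% and 16%. Cells with at least 3 Cpa3 UMIs or any Ms4a2 UMI made up 13.2% (9.84 to 17.1) of the control and 19.9% (14.5 to 26.3) of the SI cells. The other gene was Gzmb, with 73 of its 75 SI UMIs in 1 cell. Cpa3 was also higher in SI among Car1-high cells, with 13.7 and 50.3 CPM, and among neutrophil-lineage cells, with 81.2 and 346 CPM, and the part of free RNA in its level was not tested.

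Granulocyte genes summed to 971 CPM (936 to 1008) in control and 997 CPM (952 to 1043) in SI without Elane, and 23.9% of the SI sum lay in 1 cell. Without the top cell of each library the SI to control ratio of the sum was 0.823 in place of 1.03. Mpo, myeloperoxidase, stood at 294 and 187 CPM and Prtn3, proteinase 3, at 229 and 172 CPM. The 2 of 8 compared genes past 2-fold were S100a8 and S100a9. Of 6 compared monocyte and dendritic genes 2 were higher, Lyz2, lysozyme, and Ctss, cathepsin S, with 307 of 412 and 26 of 27 SI UMIs in 1 cell each, and 1 was lower, H2-Aa. Without the top cell of each library the SI to control ratio was 0.836 for Lyz2 and 0.154 for Ctss. Of the B-lineage list 11 of 19 genes were at 0 in both libraries, and Cd79b alone passed the level filter, with 24.2 and 18.4 CPM.

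Summed over all Klf1+ Car1-low cells, genes of cell cycle, survival and the targeted complex were near level, although the G2/M sums differed in opposite directions between the bins of depth. None of 20 S phase and 20 G2/M genes was 2-fold apart, with summed ratios of 1.03 (0.992 to 1.07) and 0.989 (0.952 to 1.03). Mki67 stood at 426 and 418 CPM and Mcm6, of the replicative helicase, at 327 and 335 CPM. Of 11 compared p53 targets and cell cycle inhibitors and of 12 apoptosis regulators 0 were 2-fold apart. Genes of ribosome biogenesis and Myc targets were all within 2-fold, but 21 of 22 were above 0, against 5228 of all 8639 compared genes (60.5%), with a median log2 ratio of 0.16, or 0.09 when centred on the median gene, and a summed level of 7379 CPM in control and 8133 CPM in SI. The median was 0.33 among cells with 1 to 3 Car1 UMIs and 0.06 among those with 4 to 9. The sum of this list also varied with depth. It was 5902 and 6465 CPM at 3000 to under 6000 UMIs and 6223 and 6955 CPM at 6000 to under 12000. At 12000 or more UMIs it was 9835 CPM (9631 to 10042) in control and 9593 CPM (9386 to 9804) in SI. That deepest bin held 48 of 357 control cells and 45 of 191 SI cells. Of 20 compared genes of the MLL3 and MLL4 complex and other H3K4 methyltransferases 0 were 2-fold apart. Such counts of 0 are near the share over all compared genes, of which 98.9% were within 2-fold. Kmt2c, which encodes MLL3, stood at 69.2 CPM (59.9 to 79.6) in control and 82.6 CPM (70.0 to 96.8) in SI, and Kmt2d, which encodes MLL4, at 23.9 CPM (18.6 to 30.3) and 22.1 CPM (15.9 to 30). The counts cover whole genes and do not read the altered alleles, so they do not check the genotype.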

How the data were processed

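The authors deposited raw UMI counts for each gene in each barcode. The submitters' processing notes name Cell Ranger 7.1.0 and mm10. A deposited table of immunoglobulin contigs with UMI counts was used only for its barcodes. From the counts, cells were chosen by the rule given above, their UMIs summed per library and expressed as CPM (Python 3.11.15, scipy 1.17.1). Summed UMIs were 2846190 in control and 1852145 in SI Klf1+ Car1-low cells. The cells, gene lists and alternatives were chosen with earlier results of these data known. Named genes were the 10 largest log2 ratios each way, without predicted, ribosomal protein, receptor segment, mitochondrial, Y-linked and X-inactivation genes, and of each of 27 lists the genes past 2-fold and the 4 of highest mean CPM. Some genes that the rule names are not reported here. Every other gene named was chosen after its values were seen. Doublets were kept; 5 control and 2 SI cells had a Scrublet score (scanpy 1.11.5) of 0.25 or more. On simulated data for the SI to control comparison, 99.5% of 200 genes changed 4-fold and 0.131% of unchanged genes passed 2-fold among 8604 genes. The simulated counts were Poisson draws around the summed control levels, without variation between cells or libraries. These shares thus cover counting error only and are not error rates of the genes called in the data. Alternatives are in the closing section. Cells are not replicates, so no p-value was computed.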

Additional observations from a re-analysis of the deposited data

Results flagged for a closer look

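In 4 genes past 2-fold in the Klf1+ Car1-low cells, the SI to control ratio had the other sign in Car1-high cells. The difference between the stages was not tested. Gpr183 had a log2 ratio of -1.78 in Klf1+ Car1-low and 0.20 in Car1-high cells, and H2-Aa had -1.94 and 0.68. Gzmb had 2.37 and -0.32, and Retnlg had 5.26 and -1.39. In Klf1+ Car1-low cells 73 of 75 Gzmb UMIs and all 69 Retnlg UMIs of the SI library lay in 1 cell each, and 22 of 61 control H2-Aa UMIs did. Gpr183 UMIs were spread over 28 control and 8 SI cells. In Car1-high cells each of these genes stood under 10 CPM in both libraries.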

How the results depend on the processing

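No paired analysis was possible because each group had 1 library and no replicates. The 61 higher and 33 lower genes became 32 and 14 with 10 CPM added in place of 1, 494 and 544 without a filter on low genes, and 14 and 9 at a mean of at least 50 CPM. They became 112 and 64 with at least 2 Klf1 UMIs per cell, and 138 and 182 with Car1 from 1 to 3 UMIs. With Car1 from 4 to 9 UMIs 175 were higher, and without ribosomal protein and mitochondrial UMIs in the library sums 71 were lower. The 13 interferon genes past 2-fold became 4 at 50 CPM, where 6 of the list were compared, and lay between 9 and 15 otherwise. The shares of Klf1+ Car1-low cells, 3.0% and 1.58%, became 2.19% and 1.13% with Car1 counted per 10000 UMIs, 1.30% and 0.836% with at least 2 Klf1 UMIs, and 1.95% and 1.22% with a Gata1 UMI. They became 2.61% and 1.27% with fewer than 3 Cpa3 UMIs and 0 Ms4a2 UMIs. Among barcodes of at least 5000 UMIs, added after the data were seen, the control share was 2.40%. The control share stayed above the SI share in each. Isg15 was found in 12.6% of control and 36.1% of SI cells without thinning, and in 6.67% and 17.5% at 3000 UMIs. Signs changed for genes held by single cells. Without each gene's top cell, added after the data were seen, log2 ratios were -1.55 for Ctss, -1.12 for Gzmb and -0.25 for Lyz2. Gzmb stood at -3.27 with 2 Klf1 UMIs, -2.51 with a Gata1 UMI and -2.38 with Car1 from 4 to 9. It stood at -1.19 with fewer than 3 Cpa3 UMIs and 0 Ms4a2 UMIs. With Car1 from 1 to 3 Ctss stood at -3.61, Lyz2 at -1.55, S100a8 at -1.08 and S100a9 at -1.49. With Car1 per 10000 UMIs S100a8 stood at -0.10 and S100a9 at -0.37. Of 2180 values for 129 genes, these changes of sign included, 1958 (89.8%) stayed within the counting interval. Alternatives that changed only the filter on low genes left each gene's ratio as it was, so those values stayed by construction. Genes without control UMIs had no upper limit. The share of genes thus overstates how little their ratios moved. Of 456 list medians 312 (68.4%) stayed within the width of the list's own counting interval and 144 moved further. Over all these alternatives the interferon median lay between 1.03 and 2.01. Car2 went from -0.45 to -0.96 and Aqp1 from 0.48 to 0.21 with Car1 per 10000 UMIs. Depth limits genes near 10 CPM, where 1 SI UMI is about 0.54 CPM.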
